A study of Saccharomyces cerevisiae with 4 samples.

Results

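BDF1 and BDF2 are paralogous genes of budding yeast (Saccharomyces cerevisiae) that encode double bromodomain proteins, and their transcripts were followed in cells that lack a subunit of the SAGA coactivator. Each gene is read by 1 probe set of an Affymetrix yeast array whose platform annotation carries its symbol, so these are 2 genes of 5449 named on the array. They were chosen with their signals on the 4 arrays in view, because their direction in both deletion strains was already known. Their own differences are therefore given as a description, without a test.

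The arrays hold 1 sample of an ada1 deletion strain (the ada1 mutant), 1 sample of a gcn5 deletion strain (the gcn5 mutant) and 2 samples of wild type. All 3 groups share the background BY4742, a haploid laboratory strain of mating type alpha that lacks HIS3, LEU2, LYS2 and URA3 function. The deletions were made by homologous recombination with a KanMX marker, which the wild type does not carry as far as the labels say. Cells grew at 30 C in 5 ml of rich glucose medium (YPD) to an optical density of 0.7. ADA1, named HFI1 in current annotation, holds the SAGA complex together as a structural subunit, while the product of GCN5 is the enzyme that acetylates histones and is itself a bromodomain protein. Each deletion strain was measured once, and the number of clones or cultures behind an array is not stated, nor whether the wild-type pair are separate cultures, so any spread measured between the wild-type arrays may be technical.

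Bromodomains bind acetylated lysines. Bdf1 carries a pair of them, followed by an extraterminal domain, and thus belongs to the BET family. It binds acetylated tails of histone H4, associates with the general transcription factor TFIID and is a subunit of SWR1, the remodeller that places the histone variant H2A.Z. Bdf2 is partly redundant with Bdf1, and cells that lack both are not viable. The BDF2 transcript is also under control after transcription. The RNase III enzyme Rnt1 cleaves it, and the spliceosome can start to splice it and pass it on to decay. The values below are steady-state RNA signals and do not separate synthesis from decay.

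The deleted genes gave signals of 6.70 for HFI1 in the ada1 mutant, against 246 and 279.8 in wild type, and of 3.28 for GCN5 in the gcn5 mutant, against 309 and 385 in wild type. The transcripts of the a cell genes MFA1, MFA2, STE2 and BAR1 stayed under the background level, a signal of 166 set at the 20th percentile of the mean signal, on all 4 arrays. The alpha cell genes were bright in wild type and lower in both mutants, though MF(ALPHA)1 stayed bright in both mutants. MF(ALPHA)2, which encodes alpha-factor, gave 134 in the ada1 and 204 in the gcn5 mutant, against 10769.5 and 8181 in wild type. STE3, the a-factor receptor, gave 423 in the ada1 and 517 in the gcn5 mutant, against 3645 and 3971 in wild type, and MF(ALPHA)1 gave 2602 and 4967 in these mutants, against 11518 and 8012. Their part in the values of the paralogs was not tested. Median signals per array lay between 413 and 525. The ada1 deletion array and wild-type replicate 1 reached top signals of 21989 and 23746, while the gcn5 deletion array and wild-type replicate 2 reached 12244 and 11804. Each deletion array is therefore also set against the wild-type array with the like top signal.

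BDF1 and BDF2 transcripts were low in the ada1 mutant and high in the gcn5 mutant. BDF1 (YLR399C) gave a MAS5 signal, the array software's summary of a probe set on a linear scale, of 612 in the ada1 mutant and 2274 in the gcn5 mutant, against 1309 and 1377 in wild-type replicates 1 and 2. The wild-type arrays lay close together, and both deletion arrays stood clear of them on opposite sides. BDF2 (YDL070W) gave 236 in the ada1 mutant and 1880 in the gcn5 mutant, against 658 and 993 in wild-type replicates 1 and 2. Its wild-type signals were further apart, yet they did not overlap with either deletion array. All 8 signals lay above the background level, the lowest, BDF2 in the ada1 mutant, by 1.43-fold. Levels of the paralogs are not set against each other, because they come from different probe sets. On the deposited signals the order from low to high for each gene was ada1 deletion, wild-type replicate 1, wild-type replicate 2 and gcn5 deletion. For BDF1 the wild-type arrays differed by only 1.05-fold, and their order was reversed after quantile normalization and after scaling to a common median.

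**Figure D1:**
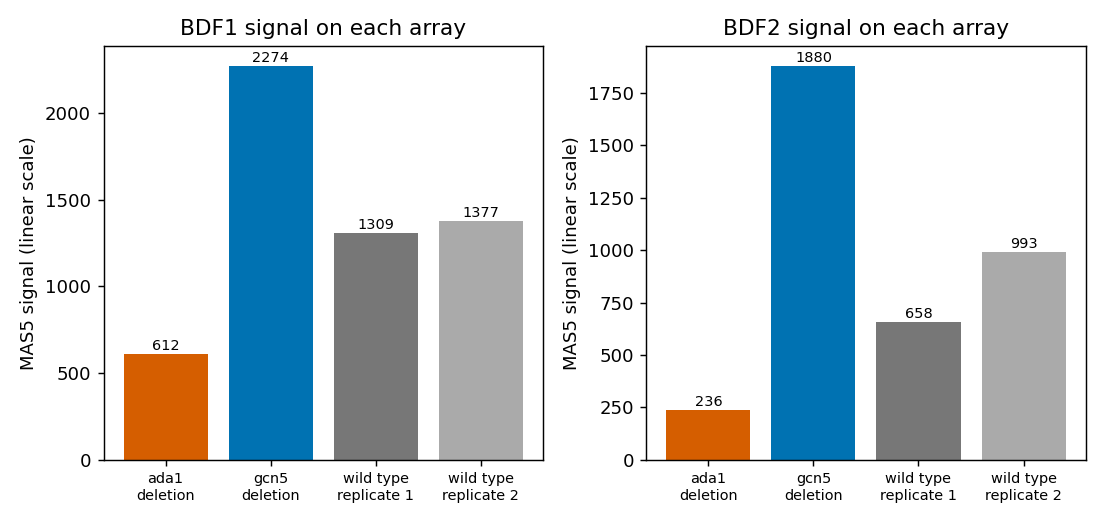
MAS5 signal on a linear scale (y axis, a separate scale for each gene) of BDF1 and BDF2 on each of the 4 arrays (x axis); each bar is 1 array. Both genes are lowest in the ada1 mutant (612 and 236) and highest in the gcn5 mutant (2274 and 1880), with both wild-type arrays in between.

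The ada1 mutant was compared with wild type to see which transcripts depend on this structural subunit. BDF1 stood at 46.8% of its signal in wild-type replicate 1 and 44.5% of that in replicate 2. The log2 difference from the wild-type mean was -1.13, and the SD between the wild-type arrays on that scale was 0.05 (n = 2). BDF2 stood at 35.9% of its signal in replicate 1 and 23.8% of that in replicate 2, with a log2 difference of -1.77 and a wild-type SD of 0.42 (n = 2). The gap to the nearer wild-type array was thus larger than the gap between the wild-type arrays for both genes. For BDF1 that wild-type gap was small, at 0.07 log2 units. The median absolute wild-type gap was 0.26 over all genes and unnamed probe sets above the background level. Both were 2-fold or more below each wild-type array, as were 3.92% of the 4541 genes and unnamed probe sets above the background level, and 29.9% of these lay below both wild-type arrays by any margin. Ordered from the lowest log2 difference, BDF2 was number 84 and BDF1 number 180 of 4541. Against replicate 1 alone, the array of like range, they were numbers 108 and 175.

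The gcn5 mutant was compared with wild type to ask the same of the acetyltransferase. BDF1 was 1.74-fold higher than in wild-type replicate 1 and 1.65-fold higher than in replicate 2, a log2 difference of 0.76 from the wild-type mean. BDF2 was 2.86-fold higher than in replicate 1 and 1.89-fold higher than in replicate 2, with a log2 difference of 1.22. Neither gene was 2-fold or more above both wild-type arrays, which 0.903% of the 4541 were. Lying above both wild-type arrays by any margin is common on this array, at 53.1%, and the median of all 4541 was itself 0.15 above wild type on the log2 scale. Relative to that median, BDF1 was 0.61 and BDF2 1.06 higher. Ordered from the highest log2 difference, BDF2 was number 35 and BDF1 number 248 of 4541, and against replicate 2 alone, the array of like range, they were numbers 64 and 139. After all arrays were scaled to a common median the difference was 0.54 for BDF1.

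**Figure D2:**
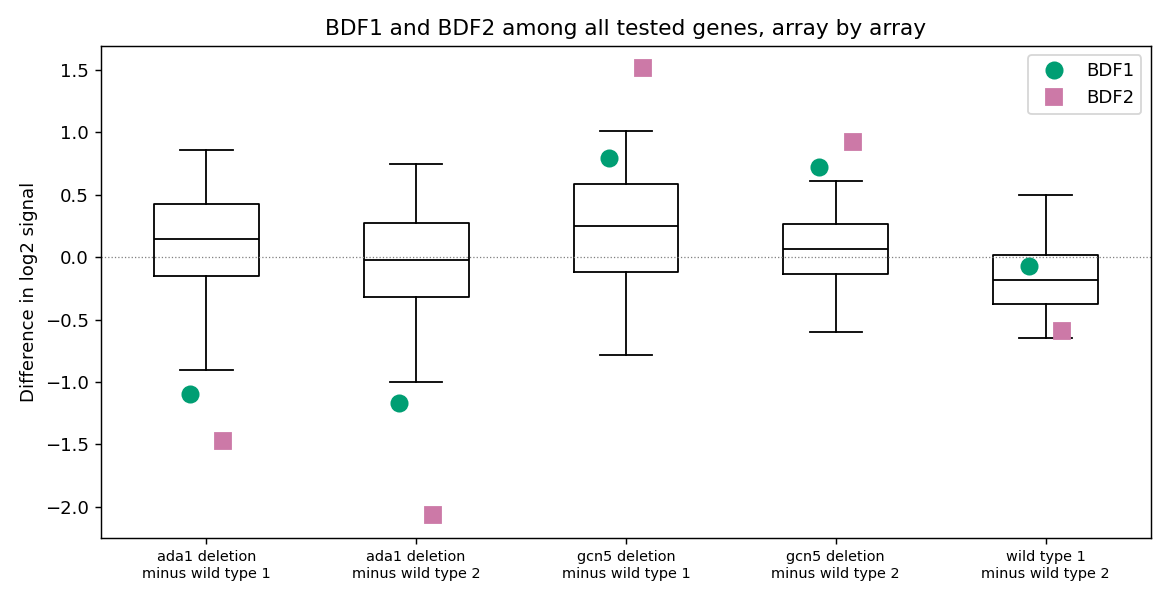
Difference in log2 signal (y axis) for each deletion array minus each wild-type array and for the wild-type arrays themselves (x axis). Boxes show the median and quartiles of all 4541 genes and unnamed probe sets above the background level, with whiskers at percentiles 5 and 95; BDF1 (circles) and BDF2 (squares) lie below the whiskers in both ada1 comparisons, and BDF2 lies above them in both gcn5 comparisons while BDF1 does so only against replicate 2.

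The deletion arrays can be set against each other without wild type. BDF1 was 3.71-fold and BDF2 7.95-fold higher in the gcn5 mutant than in the ada1 mutant. As ada1 deletion minus gcn5 deletion, the log2 differences were -1.89 for BDF1 and -2.99 for BDF2, where the median of all 4541 was -0.11. BDF2 was number 21 and BDF1 number 61 from the lowest. These arrays come from different signal ranges, and the part of that in the values was not tested. After quantile normalization, which gives all arrays the same distribution, the differences were -1.83 for BDF1 and -2.96 for BDF2.

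BDF2 moved further than BDF1 in both strains by the average over wild type. In the ada1 mutant its log2 difference was lower than that of BDF1 by 0.64, or by 0.38 with wild-type replicate 1 and 0.90 with replicate 2 alone. In the gcn5 mutant it was higher by 0.46, or by 0.72 with replicate 1 and 0.20 with replicate 2 alone. The same quantity moved by 0.52 between the wild-type arrays, where BDF2 differed by 0.59 and BDF1 by 0.07. By the average over wild type, the excess of BDF2 over BDF1 was therefore smaller than this wild-type gap in the gcn5 mutant. In the ada1 mutant it was only slightly larger than the gap. Against the wild-type array of like top signal alone, the excess was smaller than the gap in both mutants. Against the other wild-type array it was larger than the gap in both. The direction was the same with either wild-type array.

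The genes most like each paralog across the arrays were found from the root mean square distance between log2 signals, each centred on its wild-type mean, over the 4 arrays and 4392 other named genes. They were chosen by these same values and get no test. Nearest to BDF1 were VID24, GLK1, PYC2, YHP1 and PGM2, at distances of 0.03 to 0.14 log2 units. VID24, a subunit of the ubiquitin ligase that removes enzymes of gluconeogenesis, gave 313 in the ada1 and 1169.3 in the gcn5 mutant, against 687 and 736 in wild type. GLK1, which encodes glucokinase, gave 845 in the ada1 and 3781 in the gcn5 mutant, against 2029 and 2157 in wild type. PYC2 encodes a pyruvate carboxylase, YHP1 a homeodomain repressor and PGM2 a phosphoglucomutase, whose 93.1 in the ada1 mutant lay below the background level.

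Nearest to BDF2 were TSL1, EIS1, ICY1, GPX2 and PCL5, at larger distances of 0.27 to 0.34 log2 units. TSL1, a regulatory subunit of trehalose synthase, gave 249.7 in the ada1 and 1569.6 in the gcn5 mutant, against 683 and 674 in wild type. PCL5, a cyclin that takes part in the breakdown of the activator Gcn4, gave 175 in the ada1 and 2425 in the gcn5 mutant, against 827 and 943 in wild type. Both of these genes had wild-type arrays that lay close together, unlike BDF2. EIS1, an eisosome gene, was further apart in wild type, with 498 in replicate 1 and 823 in replicate 2. BDF1 was number 12 by closeness to BDF2, at a distance of 0.43, and BDF2 was number 197 by closeness to BDF1. After quantile normalization 3 of the 5 genes nearest BDF1 and 4 of the 5 nearest BDF2 were among the nearest 5 again.

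**Figure D3:**
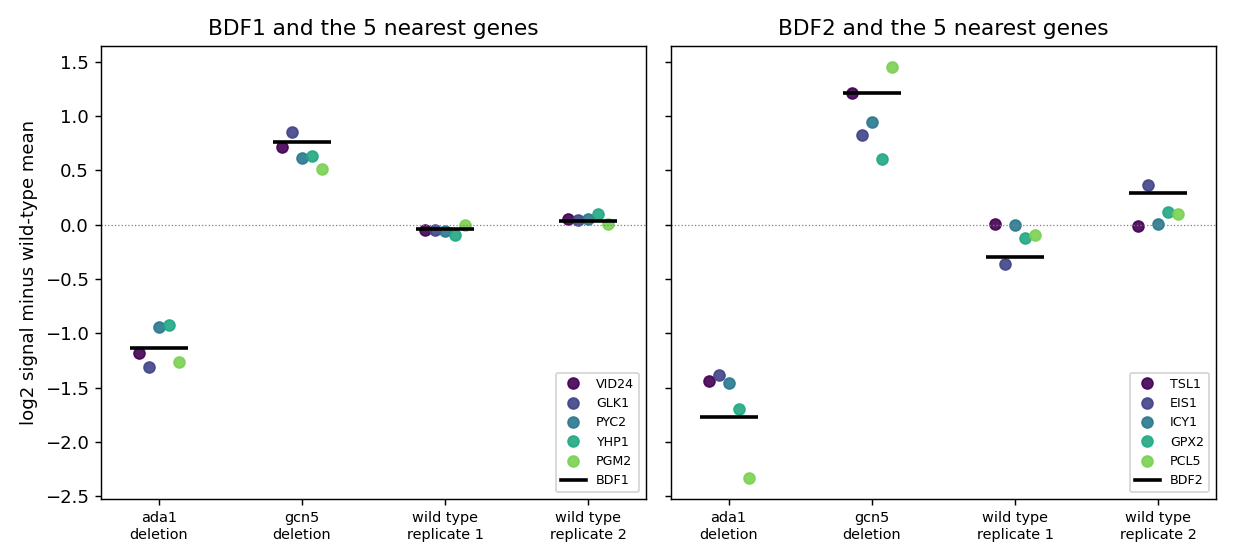
log2 signal minus the wild-type mean (y axis) on each of the 4 arrays (x axis) for BDF1 and BDF2 (black bars) and the 5 genes nearest to each (points, 1 per gene). The genes nearest BDF1 lie within 0.14 log2 units of it by root mean square distance, and those nearest BDF2 within 0.34.

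Genes that work with or upon the paralogs were read from lists. These cover the other bromodomain proteins, TFIID, SWR1 with H2A.Z, the NuA4 acetyltransferase, histone deacetylase complexes, nuclear RNA decay and the spliceosome, 127 genes in all, of which 108 reached the background level and were tested with limma across all 4541. A gene is called at a Benjamini-Hochberg adjusted p under 0.05. In the ada1 mutant 1 of the 108 was called, lower (0.926%), against 8.43% of all 4541, or 5.7% called lower. In the gcn5 mutant 3 of the 108 were called, all higher (2.78%), against 4.65% of all 4541, or 2.11% called higher, so the share called is near that of all genes in this mutant. Other settings called 1 to 6 of the listed genes in the ada1 and 1 to 4 in the gcn5 mutant. At an unadjusted p under 0.05 (limma) the numbers were 2 of the 108 in the ada1 mutant, against 16.6% of all 4541, and 11 of the 108 in the gcn5 mutant, against 15% of all 4541, and counts at this limit below can be read against these shares. Medians of the log2 difference below can be read against 0.08 in the ada1 mutant and 0.15 in the gcn5 mutant over all 4541. Against the wild-type array of like top signal alone these medians were 0.15 and 0.07.

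Among the other bromodomain genes none of the 7 tested was called in the ada1 mutant, where their log2 differences ran from -0.05 to 0.61, and none had an unadjusted p under 0.05 (limma). In the gcn5 mutant 1 of the 7 was called, 4 (STH1, YTA7, RSC1 and SNF2) had an unadjusted p under 0.05, and the median difference was 0.70, against 0.15 over all 4541. The median was 0.43 against wild-type replicate 2 alone, where that of all 4541 was 0.07. All 7 lay above both wild-type arrays, as did 53.1% of all 4541. The called gene was STH1, the ATPase of the RSC remodeller, with 1308 in the gcn5 mutant, against 571 and 784 in wild type (log2 difference 0.97 ± 0.27 SE, limma adjusted p = 0.0115; from 0.00465 to 0.152 over the alternative settings). STH1 gave 736 in the ada1 mutant, within the wild-type range. SPT7, a SAGA subunit with a bromodomain, singled out after its values were seen, gave 498 in the ada1 and 491 in the gcn5 mutant, against 277 and 385 in wild type, without a call in either. No gene of this list lay below both wild-type arrays in the ada1 mutant, where 29.9% of all 4541 did. Both paralogs did, but they were chosen with their direction known.

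The complexes that Bdf1 joins had no called gene. Of 14 tested TFIID genes, 1 had an unadjusted p under 0.05 in each strain (limma), and the medians were -0.00055 in the ada1 and 0.34 in the gcn5 mutant, or 0.41 and 0.12 against the wild-type array of like top signal alone. TAF9, shared between TFIID and SAGA, was the TFIID gene with that p in the ada1 mutant, with 1087 against 1274 and 1772 in wild type (log2 difference -0.47 ± 0.22 SE, limma adjusted p = 0.241). TAF12, also shared with SAGA, was the one in the gcn5 mutant, with 841 against 362 and 783 in wild type (0.66 ± 0.33 SE, adjusted p = 0.330). Of 11 tested genes of SWR1 and H2A.Z, 0 in the ada1 mutant and 1 in the gcn5 mutant, RVB2, had an unadjusted p under 0.05 (limma). SWR1 itself, the ATPase, gave 337 in the ada1 and 558 in the gcn5 mutant, against 293 and 398 in wild type, and was not called (limma adjusted p = 0.994 and 0.410).

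NuA4 acetylates the H4 tails that Bdf1 binds, and deacetylases act on the same marks. None of 13 NuA4 genes was called in either strain, with 0 in the ada1 and 2 in the gcn5 mutant at an unadjusted p under 0.05 (limma) and medians of 0.10 and 0.37, or 0.25 and 0.23 against the wild-type array of like top signal alone. The 2 were YNG2, with 447 in the gcn5 mutant against 183 and 315 in wild type, and EAF1, with 282 against 143 and 168. Of 18 tested deacetylase genes, 6 lay below both wild-type arrays in the ada1 mutant, against 29.9% of all 4541. In the gcn5 mutant 16 lay above both, against 53.1% of all 4541. The medians were 0.02 and 0.40, or 0.13 and 0.25 against the wild-type array of like top signal alone. Among the 18, 1 was called lower in the ada1 mutant and 1 higher in the gcn5 mutant. Both encode DNA-binding repressors that act with Rpd3 rather than catalytic subunits. ASH1, which acts in daughter cells, gave 333 in the ada1 mutant, against 1255 and 1179 in wild type (log2 difference -1.87 ± 0.27 SE, limma adjusted p = 1.41e-10, up to 0.00273 over the alternative settings). UME6, a repressor of meiotic genes, gave 659.6 in the gcn5 mutant, against 206 and 380 in wild type (1.24 ± 0.40 SE, adjusted p = 0.0486; from 0.000307 to 0.164 over the alternative settings).

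Nuclear RNA decay and splicing factors act on the BDF2 transcript. Of 20 tested decay genes, 1 rose in the gcn5 mutant and none was called in the ada1 mutant, where none had an unadjusted p under 0.05 (limma). LRP1, a cofactor of the nuclear exosome subunit Rrp6, gave 1772 in the gcn5 mutant, against 726 and 1090 in wild type (log2 difference 0.99 ± 0.23 SE, limma adjusted p = 0.00105, up to 0.129 over the alternative settings). RNT1, named here for its known cleavage of BDF2 RNA after its values were seen, gave 425 in the ada1 and 611 in the gcn5 mutant, against 396 and 613 in wild type. Both values lay within the wild-type range. Of 30 tested spliceosome genes none was called, with 0 in the ada1 mutant and 1 in the gcn5 mutant, SLU7, at an unadjusted p under 0.05 (limma), and medians of 0.23 and 0.31, or 0.34 and 0.11, in the other order, against the wild-type array of like top signal alone. NAM8, a U1 component, gave 325 in the ada1 and 629.6 in the gcn5 mutant, against 523 and 549 in wild type (log2 differences -0.72 ± 0.37 SE and 0.23 ± 0.37 SE, limma adjusted p = 0.303 and 0.836).

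**Figure D4:**
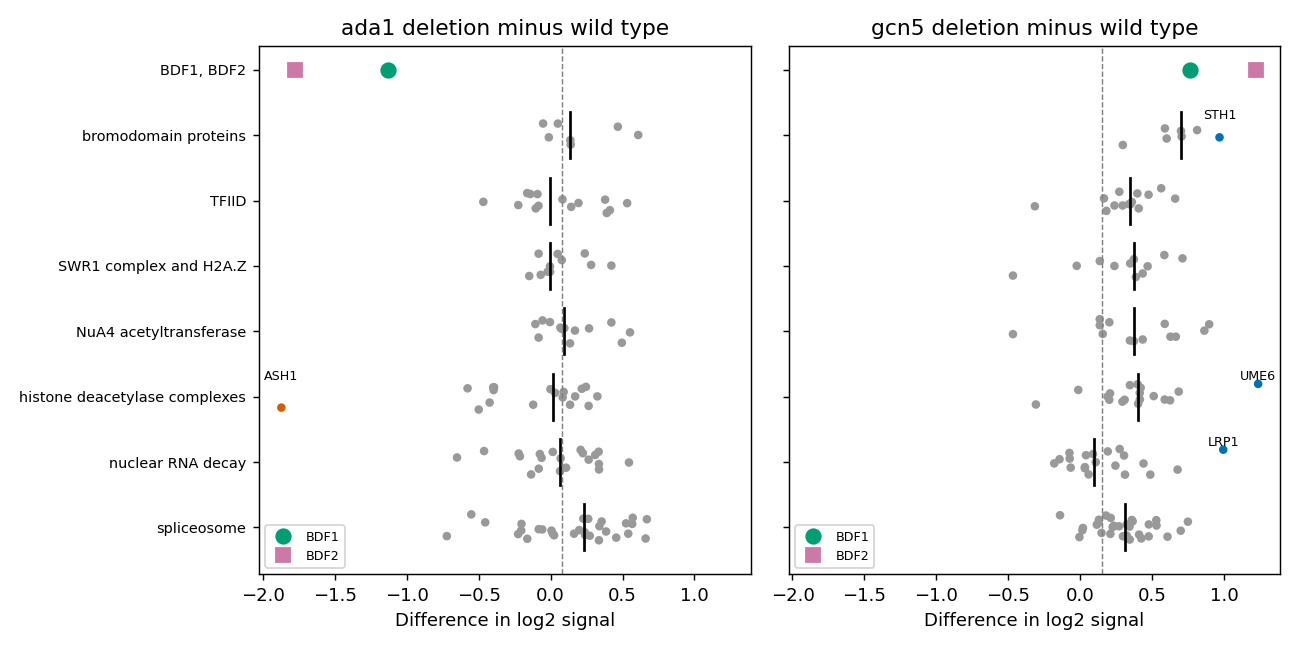
Difference in log2 signal from the wild-type mean (x axis) of the tested genes of each list (rows) in the ada1 (left) and gcn5 (right) mutants; each point is 1 gene, black bars are list medians, dashed lines the median of all 4541, and coloured, named points the genes called by limma. In the top row BDF1 and BDF2 lie at -1.13 and -1.77 on the left and at 0.76 and 1.22 on the right.

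The annotated genes on either side of the paralogs were not low in the ada1 mutant. SKI2 and DUS3 flank BDF1, and YET3 and CBS1 flank BDF2. None was called in either strain, and CBS1 in the ada1 mutant alone had an unadjusted p under 0.05 (limma). SKI2, a helicase of cytoplasmic RNA decay, gave 952 in the ada1 and 957 in the gcn5 mutant, against 599 and 892 in wild type. CBS1, a translational activator of mitochondrial cytochrome b, gave 351 in the ada1 and 246 in the gcn5 mutant, against 173 and 248.5 in wild type (log2 differences 0.76 ± 0.38 SE and 0.25 ± 0.38 SE, limma adjusted p = 0.296 and 0.836). YET3 ranged from 2882 to 3236 and DUS3 from 325 to 416 over the 4 arrays. All 4 neighbours were above the wild-type mean in the ada1 mutant, by 0.38 (SKI2), 0.22 (DUS3), 0.11 (YET3) and 0.76 (CBS1) log2 units. Lying above that mean is common, because the median of all tested genes and unnamed probe sets was itself 0.08 above it. YET3 lay close to this median.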

How the data were processed

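Biotin-labelled RNA from 200 ng of total RNA was hybridised to 1-colour Affymetrix arrays, per the labels. The authors deposited 1 linear intensity for each probe set and array, made with MAS5 per the submitters' processing notes. The sources used here do not give the MAS5 version, scaling target, detection calls or genome build, nor which part of a transcript a probe set reads. Of 5716 probe sets, 5498 carried 1 gene symbol, 0 several and 218 none, and 12 symbols were updated from the RefSeq table of assembly R64, used only for names and neighbours. Where a gene had several probe sets (47 genes), the brightest stood for it. Genes and unnamed probe sets at or above the 20th percentile of mean log2 signal were tested (4541 of 5667).

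Differences in log2 signal were fitted with limma 3.58.1 in R 4.3.3 (lmFit, eBayes with trend), all 4 arrays in 1 fit of 3 groups, with adjustment over all 4541 by the Benjamini-Hochberg method. The 1 residual degree of freedom comes from wild type, and each deletion array is assumed to vary like that pair. The prior degrees of freedom were infinite, so genes with an unusual spread get p-values that are too small. The number of arrays limits the precision.

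BDF1, BDF2, the lists and the rule for named genes were chosen with earlier results of these data known. The rule names the members called in either strain (at most 6 per list) or, with none, those with the largest differences, the nearest 5 genes of each paralog and the adjacent genes. Alternatives were quantile normalization, scaling to a common median, no filter, signals raised to the background level, a variance prior without trend, and leaving out each wild-type array.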

Additional observations from a re-analysis of the deposited data

Results flagged for a closer look

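Among the paralogs and the other named genes, 13 lay below both wild-type arrays in the ada1 deletion strain and above both in the gcn5 deletion strain. Of all 4541, 29.9% lay below both in the ada1 deletion strain and 53.1% above both in the gcn5 deletion strain. The share of the 4541 that did both was not computed, so whether this pattern is rare is not known. As ada1 deletion minus gcn5 deletion, the log2 differences were -1.89 for BDF1, -2.99 for BDF2 and -0.95 for the spliceosome gene NAM8. The other 10 are the genes nearest to each paralog, which were chosen for having its pattern. Near BDF1 the differences were -1.90 for VID24, -2.16 for GLK1, -1.56 for PYC2, -1.56 for YHP1 and -1.78 for PGM2. Near BDF2 they were -2.65 for TSL1, -2.21 for EIS1, -2.41 for ICY1, -2.30 for GPX2 and -3.79 for PCL5. The difference between the strains was not tested, and BDF1 and BDF2 were chosen for it. NAM8 was not the only listed gene with this pattern. Among the tested listed genes UME1, PHO23, HOS3, SIR2, TAF5, NRD1, NAB3 and MSL5 had it too, some by small margins, but the naming rule did not select them. SNP1, a spliceosome gene too dim to be tested, also had it.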

How the results depend on the processing

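The log2 differences of BDF1 and BDF2 kept their direction under quantile normalization, scaling to a common median, raising low signals and leaving out each wild-type array. Without wild-type replicate 1 or replicate 2 they ran, in the ada1 deletion strain, from -1.17 to -1.10 for BDF1 and from -2.07 to -1.48 for BDF2, and in the gcn5 deletion strain from 0.72 to 0.80 and from 0.92 to 1.51. BDF1 in the gcn5 deletion strain was 0.54 after scaling to a common median, from 0.76, a shift larger than its wild-type SD. That scaling moves all genes of an array alike. The order of the wild-type arrays for BDF1 changed too. In log2 units, replicate 1 minus replicate 2 was -0.07 as deposited, 0.07 after quantile normalization and 0.18 after scaling to a common median. The number of listed genes called in the ada1 deletion strain, 1 as deposited, was 4 after quantile normalization, 6 after scaling to a common median and 2 with no filter on dim probe sets. In the gcn5 deletion strain it was 3 as deposited and 1 both with low signals raised to the background level and without the trend in the variance prior. The share of all 4541 called moved as well. In the ada1 deletion strain it went from 8.43% to 15.2% under quantile normalization and under scaling to a common median. It was 5.64% with low signals raised and 5.4% without the trend. In the gcn5 deletion strain it went from 4.65% to 8.59% under quantile normalization and 10.5% under scaling to a common median. There it was 2.33% with low signals raised and 2.71% without the trend. Calls as deposited were 124 higher and 259 lower in the ada1 and 96 higher and 115 lower in the gcn5 deletion strain, against 298 and 394, and 143 and 247, after quantile normalization, and 296 and 396, and 162 and 315, after scaling to a common median. With low signals raised, STH1, UME6 and LRP1 were no longer called, and without the trend STH1 and LRP1 were not. Their log2 differences stayed at 0.97, 1.24 and 0.99 in both settings. In the ada1 deletion strain NAM8 and DBR1 were called lower and SPP2 higher after quantile normalization and after scaling to a common median, PRP19 lower and CBS1 and PRP21 higher after the latter, and SWC7, which is dim, lower with no filter. In the gcn5 deletion strain YNG2 was called higher after scaling to a common median and EAF1 with low signals raised, and GCN5, itself deleted, was called lower with no filter. The cause of these changes was not tested. Without a wild-type array no residual degree of freedom is left, so no call could be made. No paired analysis was possible because each deletion strain has 1 array and the sample titles link neither of these to a wild-type array. With 1 array per deletion strain, the spread of a deletion strain is not known.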
